A study of Bos taurus with 10 samples.

Results

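The genes described here are the mitochondrial ribosomal proteins (MRPL, large subunit; MRPS, small subunit) and the subunits and helpers of the mitochondrial protein import machinery (TIMM, translocases of the inner membrane; TOMM, translocases of the outer membrane). They were taken by symbol from a human expression array to which bovine RNA had been hybridised, with the brightest probe set standing for each gene. Of 6732 genes with a value, 39 were of this kind: 16 MRPL, 12 MRPS, 8 TIMM and 3 TOMM genes. A further 28 genes of these names are on the platform and were not analysed here because no value with their name was used, among them TOMM40, the import channel of the outer membrane, and TIMM44 and TIMM50, of the inner membrane. Each of the 39 symbols was found in the RefSeq table of bovine genes.

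The samples were pooled total RNA of cattle embryos produced by fertilization in vitro (IVF), on 3 arrays, and total RNA of 7 bovine tissues on 1 array each: spleen, muscle, lung, liver, kidney, heart and brain. The series describes the tissues as adult; breed, treatment and embryo stage were not used here. The labels leave unsaid if the 3 embryo arrays hold different pools, so the p-values may measure technical spread on the embryo side, while on the adult side they measure the spread between tissues. Precision is limited by how few arrays there are. In bulk RNA of this kind, fewer cells of a type and less RNA per cell cannot be told apart.

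Mitochondria keep a small genome whose messenger RNAs encode core subunits of the respiratory chain, and a dedicated ribosome inside the organelle translates them. In mammals the protein subunits of that ribosome are encoded in the nucleus, made in the cytosol and imported. Import begins at receptors of the TOM complex, small TIMM chaperones escort hydrophobic proteins across the intermembrane space, and the TIM23 and TIM22 complexes pass proteins into the matrix or insert them into the inner membrane. Heart muscle is known for its density of mitochondria, and the early embryo starts with mitochondria inherited from the oocyte.

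The labels were checked against markers. Among the 7 tissues, 7 of 9 liver markers, 6 of 7 heart, 7 of 8 muscle, 4 of 7 brain, 4 of 6 lung and 3 of 3 kidney markers were highest under their own label; the spleen list had 1 measured gene, MS4A1, and it was not highest in spleen. All 10 embryo markers, a list drawn up with earlier results known, were highest on the embryo arrays. Of 4 measured granulosa and cumulus markers 3 lay below the array median on every embryo array, and their summed intensity was 175.9 to 522 there against 198 to 694 in the tissues. Summed blood markers, 5 genes, were 692 to 927 in embryos and 380.1 to 921 in tissues. The liver array stood apart from the others, with Spearman correlations of 0.251 to 0.495 across probe sets against 0.434 to 0.788 between the other tissues. Embryo arrays 1 and 2 correlated at 0.944, and array 3 with them at 0.831 and 0.88. With muscle array 3 correlated at 0.492, more than arrays 1 and 2 at 0.426 and 0.405. With every other tissue it correlated less than they did. The ratio of 5′ to 3′ GAPDH control signal, a sign of RNA integrity, was 0.461 to 0.488 in embryos and 0.287 to 0.471 in tissues; that of ACTB was 0.566 to 0.728 in embryos, 2.65 in heart, 1.52 in muscle and 0.311 to 0.838 in the other tissues. The part of these markers and arrays in the results below was not tested, except where a value without the array is given.

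In embryos set against the 7 tissues, 5 of the 39 genes rose and none fell. They were MRPS30, MRPS22, MRPL39 and MRPL35, which encode subunits of the mitochondrial ribosome, and TOMM20, the import receptor that recognises cleavable presequences. Their levels in embryos were above every tissue on all 3 arrays, and among tissues heart was highest for 4 of them. The 5 calls are 12.8% of the 39 genes. At an adjusted p of 0.05, limma's calls took in 5.46% of all 10186 probe sets as higher and 1.76% as lower, and over the 6732 genes, with 1 probe set each, 5.01% higher and 1.77% lower.

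MRPS30 is numbered among the small-subunit proteins, although structures of the mammalian mitochondrial ribosome place it in the large subunit. It read a normalised intensity of 279.6, 308 and 226 on the embryo arrays, against 39.95 in brain, 174 in heart, 78.3 in kidney, 37.5 in liver, 30.1 in lung, 72.0 in muscle and 26.4 in spleen. The lowest embryo array was above heart, the highest tissue. Embryos exceeded the tissues by 1.39 ± 0.29 (SE, limma adjusted p = 0.0118), on the log2(intensity + 71) scale used for all log2 values here, on which changes of dim probe sets come out too small.

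MRPS22 is a small-subunit protein found in animal mitochondria and is known as a gene of inherited mitochondrial disease. It read 505, 653 and 555 on the embryo arrays, and 238.5 in brain, 406 in heart, 299 in kidney, 184 in liver, 129.7 in lung, 97.3 in muscle and 119 in spleen. Embryos and tissues did not overlap, and muscle and spleen were lowest. The log2 difference was 1.28 ± 0.31 (SE, limma adjusted p = 0.0287). The probe sets of MRPS22, MRPL35 and TIMM22 carry the name ending by which the manufacturer marks sets that may share probes with other sequences.

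MRPL39 and MRPL35 are large-subunit proteins, the second with a bacterial counterpart. MRPL39 read 193, 279.7 and 256 in embryos, and in tissues 54.5 in brain, 128 in heart, 55.0 in kidney, 74.5 in liver, 12.2 in lung, 130.1 in muscle and 24.4 in spleen. Heart and muscle were its highest tissues. Embryos exceeded the tissues by 1.23 ± 0.30 on the log2 scale (SE, limma adjusted p = 0.0263). MRPL35 read 202, 221 and 177 in embryos, against 71.3 in brain, 121 in heart, 49.5 in kidney, 62.0 in liver, 40.3 in lung, 64.7 in muscle and 46.0 in spleen. It differed by 1.01 ± 0.22 (SE, limma adjusted p = 0.0153), and again heart came next below the embryos.

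TOMM20 read 221, 226 and 153 on the embryo arrays. Its tissue values were 69.7 in brain, 128 in heart, 66.1 in kidney, 66.0 in liver, 63.3 in lung, 103 in muscle and 45.2 in spleen. Brain, kidney, liver and lung were nearly level, heart and muscle stood above them, and embryo array 3 was nearest to heart. The log2 difference was 0.88 ± 0.22 (SE, limma adjusted p = 0.0297).

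**Figure D1:**
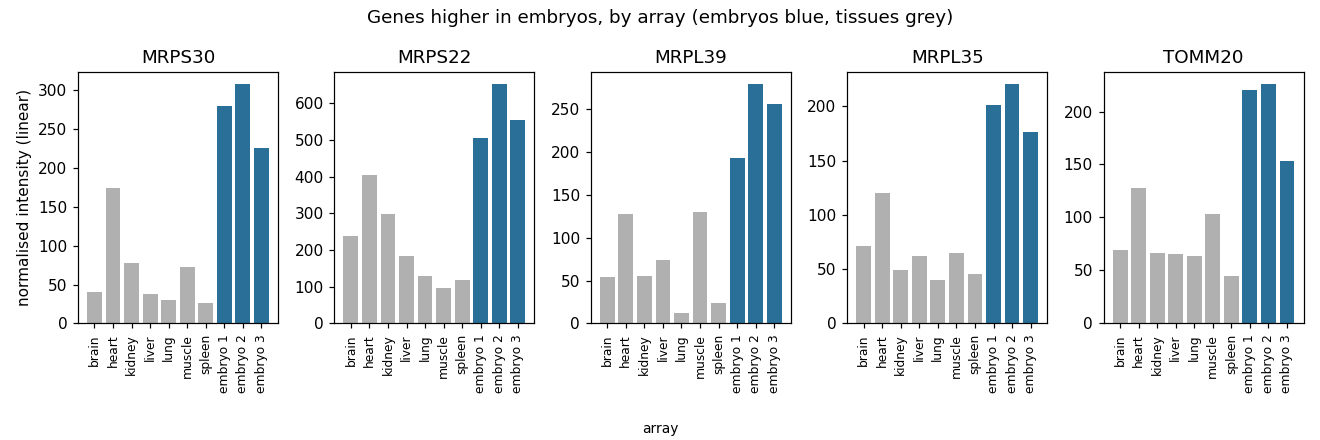
Normalised intensity (linear axis from 0, a separate scale for each gene) of the 5 genes higher in embryos, 1 bar per array; the 3 embryo arrays are blue and the 7 tissues grey. All 3 embryo bars stand above every tissue bar in each panel, and heart is the highest tissue in each panel but that of MRPL39, where muscle reads 130.1 and heart 128.

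These calls rest on the 3 embryo arrays counting as 3 samples. Averaged to 1 sample, none of the 39 was called by limma, with 3 calls over all probe sets; with embryo array 1, 2 or 3 left out, 0, 0 and 1 of them were called (the 1 being MRPS30), and with array 3 and muscle left out, none, where calls of higher signal over all probe sets went from 556 to 203, 168, 306 and 274. The log2 differences of the 5 genes stayed between 0.81 and 1.51 in those leave-outs.

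Of the 34 genes that did not pass, the 3 embryo values lay above all tissues for 2 more. MRPL22, a protein beside the exit tunnel of the large subunit, read 159, 243 and 179.8 in embryos against 40.6 to 136 in tissues (median 98.0), 0.72 ± 0.23 higher on the log2 scale (SE, limma adjusted p = 0.0862). MRPS35, a small-subunit protein, read 282, 237 and 231 against 147 to 206 (median 187), 0.34 ± 0.15 higher (SE, limma adjusted p = 0.224). Thus 7 of 39 genes, or 17.9%, were above every tissue on all embryo arrays, where 8.69% of all genes were. By the brightest probe set none of the 39 was below every tissue, where 5.66% of all genes were. The other probe set of TIMM17A was below every tissue, with values given further on. The median log2 difference of the 39 was 0.34, beside -0.05 for all genes, and 30 of 39 differences were positive against 3096 of 6732.

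**Figure D2:**
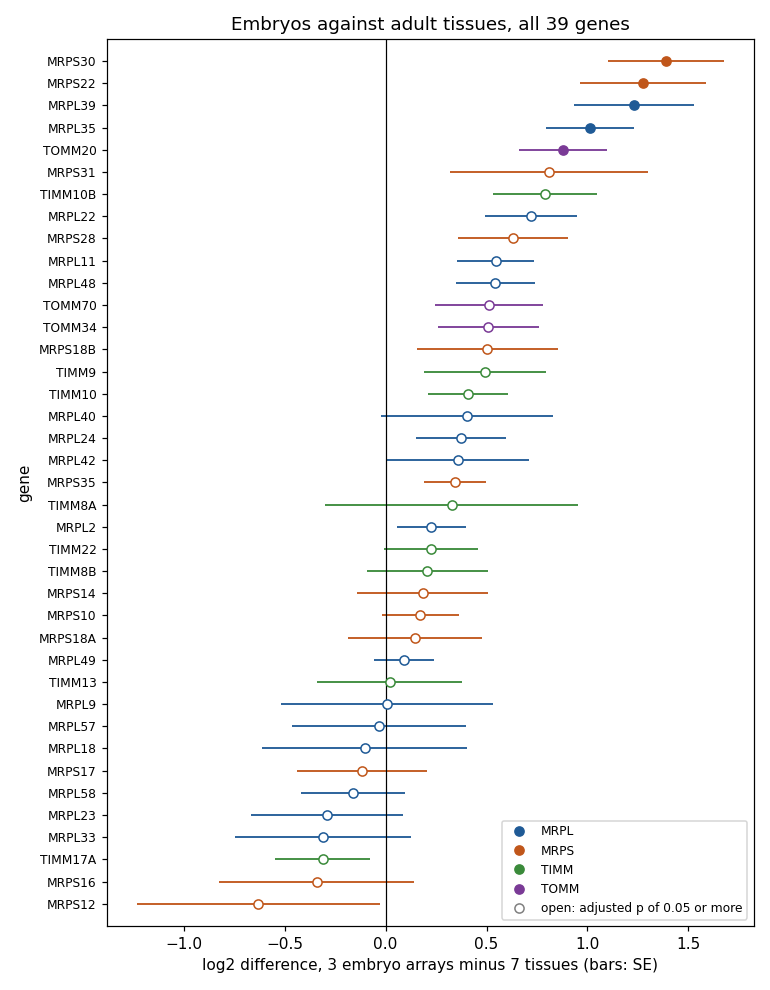
Log2 difference between the 3 embryo arrays and the 7 tissues for each of the 39 genes, with bars of 1 SE; colours give the MRPL, MRPS, TIMM and TOMM genes and filled circles mark a limma adjusted p under 0.05. The filled circles run from TOMM20 at 0.88 to MRPS30 at 1.39, and the lowest open circle is MRPS12 at -0.63.

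By kind, 2 of 16 MRPL genes rose (12.5%, against 5.01% of all genes), with a median difference of 0.29 over the 16. Of 12 MRPS genes 2 rose, with a median of 0.26, and of 3 TOMM genes 1 rose, with a median of 0.51. None of the 8 TIMM genes passed; 7 of their differences were positive and the median was 0.28. With so few genes of each kind, these counts set no kind apart.

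The large-subunit genes that did not pass included proteins of known place. MRPL11, of the stalk base where translation factors bind, read 185, 187 and 174 in embryos and 79.8 to 179 in tissues (median 92.0), where heart at 179 lay among the embryo values. MRPL48 read 226, 234 and 388 in embryos and 130.3 to 249 in tissues, so that array 3 stood above arrays 1 and 2, and muscle was the highest tissue. MRPL2, of the catalytic region, read 204, 231 and 302 in embryos and 159.7 to 251 in tissues. MRPL49 varied least over tissues of all 39 genes, from 139 to 189, and read 198, 161 and 157 in embryos. Neither of these last was apart from the tissues, with log2 differences of 0.23 ± 0.17 and 0.09 ± 0.15 (SE).

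Some of these genes were read high in liver. MRPL18, which binds the large ribosomal RNA and is also known for a cytosolic form made in heat shock, read 426 in liver and 9.91 to 71.5 in the other tissues, with 39.05, 57.7 and 44.97 in embryos. MRPS12, a protein of the decoding centre, read 700.2 in liver, 167 in heart and 12.5 to 41.0 in the other tissues, against 36.6, 21.1 and 22.4 in embryos. The embryo values of MRPS12 lay within the range of the non-liver tissues, and its log2 difference of -0.63 ± 0.60 (SE, limma adjusted p = 0.609) did not pass. MRPL23, beside the exit tunnel, read 604 in liver and 92.3 to 302 elsewhere, with 129.7, 145 and 147 in embryos (chosen after its values were seen, as were MRPL9, MRPL11, MRPL22, MRPL33, MRPL40, MRPL58, MRPS14, MRPS18A, MRPS28, TIMM8B and TIMM10B). In all, 6 of the 39 genes were highest in liver, or 15.4%, beside 16.3% of all genes.

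Among small-subunit genes MRPS31 had the widest range over tissues after MRPS12. It read 340.3 in brain, 1788 in heart, 509 in kidney, 404 in liver, 194 in lung, 903 in muscle and 317 in spleen, and 941, 979.6 and 903 in embryos. The embryo arrays thus lay close to muscle, below heart and above the other 5 tissues. Its difference from the 7 tissues did not pass (0.81 ± 0.49, SE, limma adjusted p = 0.392), while against the 5 tissues without heart and muscle it was 1.30 (limma adjusted p = 0.0217). The other MRPS31 probe set did not share this pattern: it read 454 in liver, 43.7 to 123 in the other tissues and 66.2, 89.99 and 105 in embryos. MRPS18B, a further small-subunit protein, read 267, 211 and 165 in embryos and from 27.7 in brain to 336 in heart (median 115). MRPS28 read 83.8, 106 and 172 in embryos and 27.4 to 108 in tissues, with liver highest among them.

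The import genes cover receptors, chaperones and channels. TOMM70, the receptor for carrier proteins handed over by cytosolic chaperones, read 981, 999.5 and 1109 in embryos, and 567 in brain, 1013 in heart, 882 in kidney, 471 in liver, 646 in lung, 977 in muscle and 534 in spleen. Embryos, heart and muscle were thus at a like level, and the difference of 0.51 ± 0.27 (SE, limma adjusted p = 0.311) did not pass. The other TOMM70 probe set went the opposite way, with 258 and 277 on embryo arrays 1 and 2, less on array 3, 1076 in brain and 226 to 472 in the other tissues (-0.60 ± 0.36, SE, limma adjusted p = 0.388). TOMM34, a cytosolic co-chaperone of import in spite of its name, read 234, 305 and 211 in embryos and from 77.0 in muscle to 274 in spleen.

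TIMM9 and TIMM10 form the chaperone ring that carries hydrophobic proteins to the TIM22 complex. TIMM9 read 458, 656 and 509 in embryos and from 152 in lung to 554 in heart (median 446). TIMM10 read 345, 357 and 284 in embryos and from 177 in spleen to 336 in heart (median 247). Both overlapped the tissues, with differences of 0.49 ± 0.30 and 0.41 ± 0.20 (SE, limma adjusted p = 0.4 and 0.27). TIMM10B, a related chaperone attached to the TIM22 complex, read 151, 172 and 149 in embryos, 152 in spleen and 36.9 to 70.1 in the other 6 tissues; its difference of 0.79 ± 0.26 (SE) had a limma adjusted p of 0.0969.

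TIMM8A and TIMM13 form an alternative ring, and loss of TIMM8A causes a deafness-dystonia syndrome in humans. The brightest TIMM8A probe set read 131 and 163 on embryo arrays 1 and 2 and 769 on array 3. In tissues it read 651 in lung, 808 in muscle and 88.2 to 127 in the other 5. The values formed a low and a high set that did not follow the embryo and tissue labels, and the other TIMM8A probe set read 194, 194 and 368 in embryos and 135 to 259.9 in tissues. TIMM13 read 286, 228 and 242 in embryos and from 104 in brain to 535 in heart. TIMM8B, a paralog of TIMM8A, read 454, 433 and 494 in embryos and from 249 in brain to 652 in heart.

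Of the channel subunits, TIMM22, which inserts carrier proteins into the inner membrane, read 442, 472 and 424 in embryos and 230.1 to 486 in tissues, a difference of 0.22 ± 0.23 (SE, limma adjusted p = 0.639). TIMM17A, of the TIM23 presequence channel, was the only TIMM or TOMM gene with a negative difference by the brightest probe set. It read 168, 148 and 65.3 in embryos and 126 to 277 in tissues, and its other probe set read 80.5, 113 and 109 against 117 to 222. These differences, -0.31 ± 0.24 and -0.46 ± 0.17 (SE), had limma adjusted p of 0.505 and 0.155. TIMM23, the channel itself, shares its probe sets by annotation with the copy TIMM23B, so it was not counted among the 39. The dimmer of these probe sets read 311, 578 and 335 in embryos and 71.2 to 206 in tissues, a rise of 1.18 ± 0.24 (SE, limma adjusted p = 0.0104). The brighter read 1032, 1162 and 572 in embryos and 89.9 to 786 in tissues, which overlapped (1.12 ± 0.46, SE, limma adjusted p = 0.185).

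**Figure D3:**
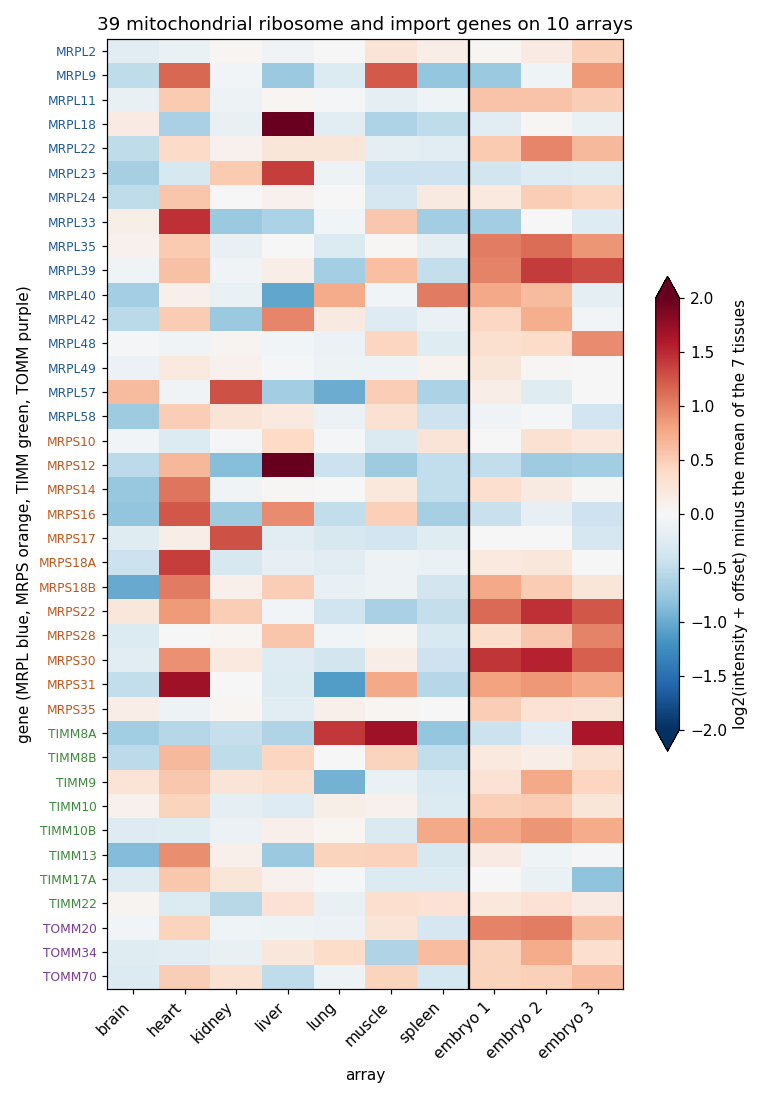
Log2(intensity + 71) of the 39 genes on each of the 10 arrays, minus the mean of the gene over the 7 tissues, drawn from -2 (blue) to 2 (red) with values beyond that at the end colours; a vertical line parts tissues from embryos. The heart column is the reddest of the tissues, MRPL18 and MRPS12 stand out in liver, and TIMM8A is high in lung, muscle and embryo array 3 alone.

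The embryo arrays were next set beside each tissue by itself, as counts with no test, since a tissue has 1 array. The 3 embryo values were all above brain for 32 of the 39 genes (82.1%, against 42.3% of all genes) and all below it for 3 (7.69%, against 35.1%). Beside spleen they were above for 29 (74.4%, against 37.4%) and below for 1 (2.56%, against 33.9%), namely MRPL40 of the large subunit, at 1564, 1438 and 781 in embryos and 1927 in spleen. Beside kidney they were above for 28 (71.8%, against 37.3%) and below for 5 (12.8%, against 37.4%). The order of these shares depends on the scaling and is given again below for the values as deposited.

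Beside lung the embryo values were above for 27 genes (69.2%, against 41.3%) and below for 3 (7.69%, against 33.1%). Beside liver they were above for 24 (61.5%, against 42.8%) and below for 10 (25.6%, against 33.6%). Beside muscle they were above for 23 (59%, against 39.6%) and below for 9 (23.1%, against 37%). Beside heart the counts were near those of all genes: above for 16 (41%, against 41%) and below for 14 (35.9%, against 37.5%). With the values as deposited, where embryo array 3 is brighter as a whole, the share was highest beside kidney (74.4%, against 42.1% of all genes) and liver (71.8%, against 60.2%). It was 66.7% beside spleen (against 33.1%) and 64.1% beside lung (against 43.9%). Beside brain, heart and muscle it was 56.4% each, against 27.5%, 52% and 36.5% of all genes.

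**Figure D4:**
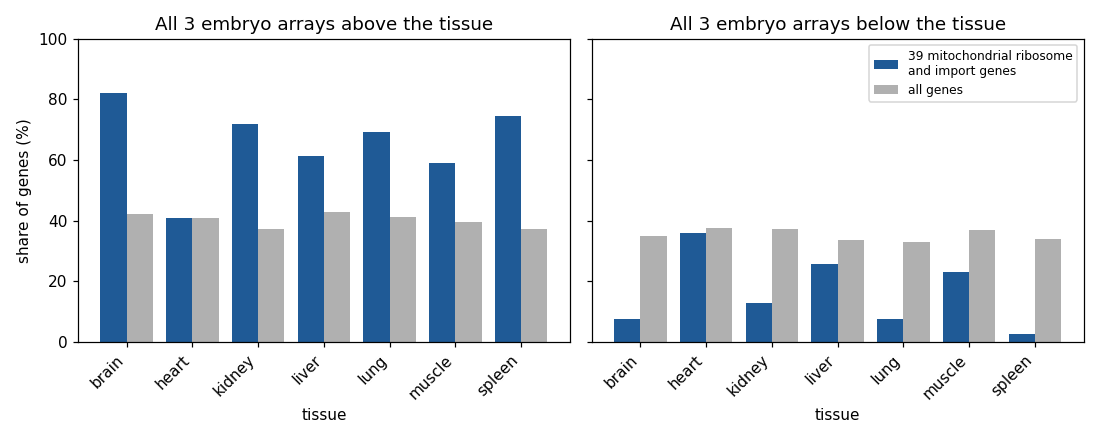
Share of genes, in percent, for which all 3 embryo arrays lay above (left) or below (right) each tissue's single array, for the 39 genes (blue) and all 6732 genes (grey). The blue bar on the left is tallest for brain at 82.1% and level with the grey for heart at 41%.

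Among the tissues themselves, heart was the highest for 21 of the 39 genes, or 53.8%, where it was highest for 13.5% of all genes. These included 7 of 16 MRPL, 7 of 12 MRPS, 5 of 8 TIMM and 2 of 3 TOMM genes. Muscle was highest for 6 genes (15.4%, against 17.8% of all genes) and liver for 6 (15.4%, against 16.3%). Spleen was highest for 3 (7.69%, against 14.1%) and kidney for 2 (5.13%, against 12.4%). Brain was highest for 1 (2.56%, against 15.2%) and lung for 0 (against 10.7%). On the normalised values brain was lowest for 12 (30.8%, against 16.7% of all genes). With the values as deposited heart was highest for 14 of the 39 (35.9%, against 9.11% of all genes).

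Heart stood far above the next tissue for several genes. MRPS18A, which structures place in the large subunit, read 569.6 in heart and 113 to 158 in the other 6 tissues. MRPS14, of the small subunit, read 637 in heart, 319 in muscle and 129 to 269 in the others. MRPL33 read 1162 in heart, 578 in muscle and 194 to 414 in the others, with 205, 378 and 303 in embryos. Embryos were thus below heart for MRPL33 by more than the spread of their 3 values.

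Heart and muscle were then joined as 1 group and tested against the other 5 tissues. None of the 39 genes passed in limma. Of the 39, 8 had an unadjusted limma p under 0.05, all of them higher. Over all 6732 genes 820 had such a p, of which 549 were higher. Over all probe sets 0.913% were called higher and 0.0589% lower, and over the 6732 genes 0.966% and 0.0297%, so this test called few genes of any kind. Heart and muscle were both above all 5 other tissues for 11 of the 39 genes, or 28.2%, where 10.3% of all genes were. Both were below them for 2 genes, MRPL18 and MRPS10, or 5.13%, where 8.96% of all genes were.

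The 11 were MRPL9, MRPL33, MRPL39, MRPL58, MRPS14, MRPS18A, MRPS31, TIMM8B, TIMM13, TOMM20 and TOMM70. MRPS31 had the largest difference, 1.71 ± 0.38 (SE, limma adjusted p = 0.0943). Its other probe set had a difference of -0.41 ± 0.57 (SE, limma adjusted p = 0.794). MRPL9, of the large subunit, read 209 in heart, 224 in muscle and 2.75 to 50.9 in the other tissues, a difference of 1.65 ± 0.34 (SE, limma adjusted p = 0.0756). It passed with a larger offset and with the plain form of the moderated test. Its embryo values, 4.57, 47.9 and 159, spread over most of the tissue range. The median difference of the 39 genes was 0.26, beside -0.06 for all genes; without heart it was 0.13 and without muscle 0.59. Each of these sets 1 array against 5 tissues and assumes that the lone array varies as those tissues do, which also holds for the 1 gene called without muscle, MRPS18A.

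The level of the 39 genes as a set was described by the median, on each array, of the log2 value minus the gene's tissue mean. It was 0.49 in heart, 0.03 in muscle, 0.02 in liver, -0.02 in kidney, -0.10 in lung, -0.26 in brain and -0.31 in spleen. On the embryo arrays it was 0.30, 0.30 and 0.26, between heart and the other tissues. The same median over all genes ran from -0.12 to -0.02 in tissues and from -0.08 to -0.06 in embryos. With the values as deposited the 39 genes stood at 0.36 in heart and at 0.47 ± 0.27 (SD, n = 3) in embryos, where all genes stood at -0.22 and 0.10, so the order of the embryo mean and heart turned on that scale. Embryo array 1, at 0.20, was still below heart there, and arrays 2 and 3, at 0.47 and 0.74, were above it. Brain stood at 0.03 and liver at -0.20 on that scale, where all genes stood at 0.18 and -0.35. The order of brain and liver thus turned too.

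For comparison, 58 measured genes of oxidative phosphorylation, the respiratory chain that depends on mitochondrial translation, had the same median at 1.21 in heart, 0.26 in muscle and -0.48 in spleen, and at 0.14, 0.18 and 0.08 in embryos. Heart was highest for 50 of the 58 (86.2%, against 13.5% of all genes). Heart and muscle were both above the other tissues for 34 of them (58.6%, against 10.3% of all genes). In embryos 1 of the 58 rose and none fell, and that 1.72% is below the 5.01% of all genes that rose. It was COX7A2, a subunit of cytochrome c oxidase, at 263, 316.5 and 234 against 26.7 to 129 in tissues (1.12 ± 0.23, SE, limma adjusted p = 0.0118). In heart and muscle NDUFS3, a core subunit of complex I, rose by 1.72 ± 0.30 (SE, limma adjusted p = 0.043).

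**Figure D5:**
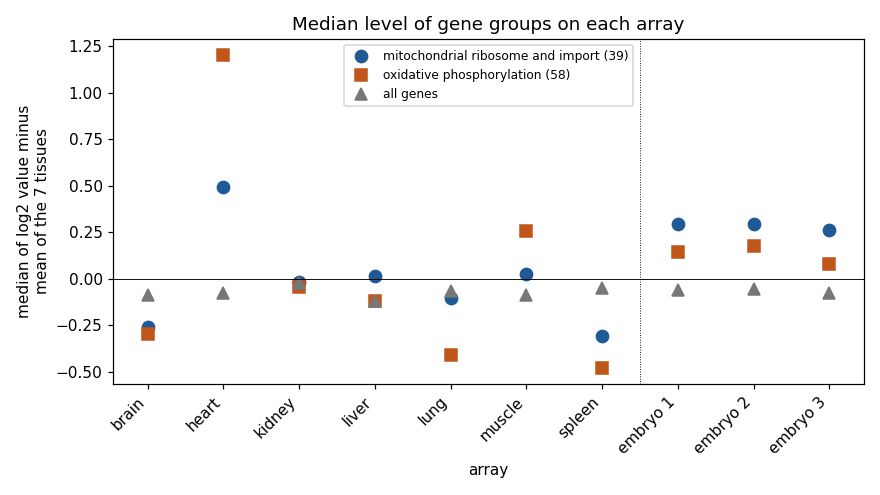
Median over genes of the log2 value minus the gene's mean over the 7 tissues, on each array, for the 39 mitochondrial ribosome and import genes (circles), 58 genes of oxidative phosphorylation (squares) and all genes (triangles). In heart the squares stand at 1.21 and the circles at 0.49, whereas on the 3 embryo arrays the circles, at 0.26 to 0.30, stand above the squares, at 0.08 to 0.18.

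The 39 genes varied together only loosely. Over the 7 tissue arrays the median Pearson correlation between pairs of them was 0.21, with the middle of the pairs between -0.18 and 0.55. Pairs of oxidative phosphorylation genes had a median of 0.75, and all pairs of genes -0.02. Pairs within the MRPL genes had a median of 0.17, within the MRPS genes 0.25 and within the TIMM genes 0.14. The 3 TOMM genes make few pairs, with a median of -0.71 over the tissues and 0.27 over all 10 arrays. TOMM20 and TOMM70 were both highest in heart, while TOMM34 was highest in spleen and lowest in muscle. The correlations over tissues describe 7 points that share their arrays and normalization.

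Other genes of mitochondrial gene expression and import were counted from lists. Of 37 listed genes of mitochondrial translation 12 were measured, and 1 rose and none fell in embryos (8.33%, against 5.01% of all genes that rose). It was GARS1, the glycyl-tRNA synthetase that serves both cytosol and mitochondria, at 734, 575.5 and 483.5 against 52.0 to 260.2 in tissues (1.77 ± 0.28, SE, limma adjusted p = 0.00272). Of 38 listed genes of mitochondrial RNA, DNA and ribosome assembly 17 were measured, and 2 rose and none fell (11.8%, against the same 5.01%). In lists this short, 1 call is a large share. They were SSBP1, which binds single-stranded mitochondrial DNA (1.54 ± 0.35, SE, limma adjusted p = 0.0183), and C1QBP, a matrix protein that binds RNA (1.21 ± 0.28, SE, limma adjusted p = 0.0219). The other SSBP1 probe set did not pass, at 108 in embryos and 117 in tissues, while the other C1QBP probe set rose too, by 1.08. The C1QBP values, 534, 501 and 411 in embryos, overlapped heart at 417.

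Of 42 listed partners of import, such as matrix chaperones and processing peptidases, 21 were measured, and 1 rose and none fell, a share of 4.76% that is near the 5.01% of all genes and is no result about the list. DNAJC15, a J-domain protein of the import motor, read 146, 260.5 and 115.5 in embryos and 26.7 to 74.8 in tissues (1.05 ± 0.26, SE, limma adjusted p = 0.0296). The medians of the differences were 0.16 for translation, -0.07 for RNA, DNA and assembly, and 0.15 for import partners. None of these 50 genes passed in heart and muscle against the other tissues. Of 6 listed ribosomal subunits under other names, 0 were measured by that name. MRPL58, a peptidyl-tRNA hydrolase built into the ribosome, is counted among the 39 and read 191, 198 and 139 in embryos and 97.7 to 316 in tissues.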

How the data were processed

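The authors deposited 1 linear intensity per probe set and array; the background correction, scaling and software behind it are unknown here. Values were present for 10219 of 22283 probe sets, and removing control sets left 10186. Median intensities ran from 99.2 to 221, so arrays were quantile normalized (forcing a common distribution), and log2(intensity + 71) was taken, the offset being the median 25th percentile. All 10186 were tested, with no filter, so that every gene of the group is accounted for; 34 of the 39 exceed their array's median on at least 3 arrays. Tests were two-sided, by limma 3.58.1 under R 4.3.3, with moderated variances (trend and robust options) and Benjamini-Hochberg adjustment over all probe sets (threshold 0.05), and were tried on simulated data. Symbols came from the platform annotation: 8847 probe sets had 1, 479 several and 860 none. Human probes may match bovine RNA poorly, so levels of different probe sets are not comparable amounts of RNA. They were still used to choose the brightest probe set, to sum markers and to place genes against array medians. No coordinates, promoter or protein sequences were used here.

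Groups came from sample titles. The genes and lists were chosen with earlier results of these data known. Named genes were those past the threshold (up to 12 in each direction in embryos, 6 in heart and muscle), 19 fixed names, of which 8 had no value under a single symbol, the 4 with the widest and the 4 with the narrowest tissue range, and up to 3 called genes per list. Alternatives were other scalings, offsets, filters, moderation, probe set choice, treatments of the embryo arrays and each array left out. Figures used matplotlib 3.10.9 in Python 3.11.15.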

Additional observations from a re-analysis of the deposited data

Results flagged for a closer look

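Among the 7 tissue values of each of the 21 genes named by rule, 2 genes had a tissue that met Dixon's criterion at 95% on the log2 scale, which chance meets in about 1 of 20 groups. That rate does not apply to genes named for their range over these same tissues, as both were. MRPL18, among the 4 genes with the widest range, read 426 in liver and 9.91 to 71.5 in the other 6 tissues. MRPL48 read 249 in muscle and 130.3 to 175 in the other 6; it lies at the limit of the criterion and is among the 4 genes with the narrowest range over tissues.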

How the results depend on the processing

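The count of 5 genes higher in embryos was 4 to 6 with other scalings, offsets, moderation or probe set choice and with the filter at the array median. In those settings 4.72% to 8.86% of all probe sets tested were called higher. Against the 5 tissues other than heart and muscle it was 7, where 4.85% of all probe sets were called higher. It was 1 with a filter at the 75th percentile, which tested 16 of the 39 genes. That filter left 3322 probe sets, of which 430 (12.9%) were called higher. It was 0 with the embryo arrays averaged and 0 without the third embryo array and muscle (chosen after seeing the data). With a fit of 8 groups, whose spread comes from the embryo arrays alone, 12 were higher and 1 lower (MRPS12). Over all 10186 probe sets that fit called 1735 (17%) higher and 2375 lower. Leaving out single arrays gave 0 to 6 higher and 0 lower, with 0, 0 and 1 for the 3 embryo arrays. Over all probe sets 4.76% to 5.77% were called higher with a tissue left out. With embryo array 1, 2 or 3 left out that share was 1.99%, 1.65% and 3%. MRPS22 did not pass at a common median (limma adjusted p = 0.0526) or without lung (0.0503). The count of 0 in heart and muscle was 1 with a larger offset and 1 without trend and robust settings (MRPL9 in both). In those settings 0.962% and 1.18% of all probe sets were called higher. It stayed 0 with any of the other 5 tissues left out. Without heart or without muscle, 1 array alone stands for the group. Median differences kept their sign throughout, from 0.20 to 0.52 in embryos and from 0.12 to 0.59 in heart and muscle. The causes were not tested. No paired analysis was possible because only the embryo titles are numbered, each tissue has 1 array, and nothing ties an embryo array to a tissue array. Probe sets near background on some arrays are limited by signal there. Examples are those of MRPL9 (2.75 in spleen, 224 in muscle) and MRPS16 (8.66 in brain, 256 in heart).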
